A study of Mus musculus with 3 samples.

Results

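The cells described here are venular endothelial cells of mouse dorsal skin that held transcripts of P-selectin (Selp) and E-selectin (Sele), taken from 3 single-cell RNA libraries. A barcode was counted as such a cell when it had at least 500 genes, at least 1000 unique molecular identifiers (UMIs, each marking a captured RNA molecule) and at most 15% mitochondrial UMIs. It also had to hold at least 1 UMI of at least 3 of the 7 endothelial genes Pecam1, Cdh5, Cldn5, Flt1, Kdr, Egfl7 and Ptprb, and at least 3 UMIs of Selp and Sele together. Cells with more than 1 UMI of the arterial genes Sema3g and Gkn3, any UMI of the lymphatic genes Prox1 and Mmrn1, or more than 1 UMI of the smooth-muscle gene Myh11 were left out. The rule found 657 venular cells among 33204 barcodes that passed the first filters: 54 of 11722 in the young control library, 479 of 9408 in the knockout library and 124 of 12074 in the old control library. Selp, Sele and the other genes of the rule chose these cells, so their values are given as a description only.

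The series compared skin without the transcriptional co-activators YAP and TAZ, encoded by Yap1 and Wwtr1, with young and old control skin. The young control mice were Yap1 fl/fl; Wwtr1 fl/fl, 2.5 months old and given tamoxifen, so they carried the floxed alleles without the recombinase. The knockout mice carried R26-CAG-CreER on top of both floxed alleles (Yap1 fl/fl and Wwtr1 fl/fl), were also 2.5 months old, and had the same tamoxifen course of 0.11 mg per g body weight by mouth on 2 days a week for 4 weeks. R26-CAG-CreER is a tamoxifen-inducible Cre expressed throughout the body, so deletion was not directed to endothelial cells. The old control mice were wild-type, untreated and 24 months old. Old and young control thus differed in age, strain, floxed alleles and tamoxifen together, and these cannot be told apart. Each group was 1 library, and the number of animals behind each library was not given in the sources used here. With 1 library per group no test between groups was possible, and every interval below is a 95% interval that covers counting error only.

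The libraries held 52579262 to 95274423 UMIs in 15290 to 25348 deposited barcodes. Of the deposited barcodes, 12.3% in young control skin, 62.4% in the knockout library and 19.4% in the old control library were over the mitochondrial limit. Library pairs shared 127 to 198 barcode sequences. The venular cells summed to 386502 UMIs in young control skin, 1434027 in the knockout library and 499509 in the old control, with medians of 5758.5, 2503 and 3445.5 UMIs per cell. A single young control cell held 56821 UMIs, 14.7% of that sum, against 1.76% and 2.69% for the deepest cell of the knockout and old control libraries. Xist, transcribed from the inactive X chromosome, was at 887 counts per 1000000 UMIs of the venular cells (CPM) in the young control, 0 in the knockout library and 733 in the old control, while the Y-linked Ddx3y was at 0, 126 and 0 CPM. The knockout library therefore differed from both control libraries in sex as well as genotype, and the 2 cannot be told apart in any comparison below.

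Post-capillary and collecting venules are the segment of the vascular bed from which leukocytes leave the blood. Their endothelium stores P-selectin with von Willebrand factor in Weibel-Palade bodies and transcribes E-selectin after inflammatory stimulation through NF-kB. Selectins catch passing leukocytes, ICAM-1 and VCAM-1 hold them, and chemokines shown on the venular surface direct their passage, while cytokines such as G-CSF (Csf3) and interleukin-6 (Il6) act on marrow and neighbouring cells.

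Sele and Selp lie close together on chromosome 1, Sele at 164048234 to 164057677 and Selp at 164115264 to 164150026, both on the plus strand of GRCm38. The 250 bases upstream of their starts are shown because these are the genes that chose the cells, and those of Il6 and Cxcl10 because these secreted factors were higher in the knockout library and lower in the old control. The sequences come from the RefSeq promoter table for GRCm38.p6, which held 4 of the 6 genes sought (the others were Csf3 and Plvap). Capitals mark every match, on either strand and overlaps included, to the letters GGGNNNNNCC (an NF-kB-like motif), TGANTCA (an AP-1-like motif) or TTCNNNGAA (a STAT-like motif).
Sele, chr1:164047984-164048233, plus strand: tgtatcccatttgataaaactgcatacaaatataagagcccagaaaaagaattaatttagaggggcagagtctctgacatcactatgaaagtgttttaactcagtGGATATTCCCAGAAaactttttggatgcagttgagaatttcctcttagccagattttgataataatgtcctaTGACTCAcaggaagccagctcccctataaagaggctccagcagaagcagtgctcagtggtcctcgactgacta
Selp, chr1:164115014-164115263, plus strand: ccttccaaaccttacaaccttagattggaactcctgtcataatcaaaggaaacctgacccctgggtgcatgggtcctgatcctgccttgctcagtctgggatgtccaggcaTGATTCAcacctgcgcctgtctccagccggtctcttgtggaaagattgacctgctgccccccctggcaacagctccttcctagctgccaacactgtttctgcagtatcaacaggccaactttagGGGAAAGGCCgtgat
Il6, chr5:30012864-30013113, plus strand: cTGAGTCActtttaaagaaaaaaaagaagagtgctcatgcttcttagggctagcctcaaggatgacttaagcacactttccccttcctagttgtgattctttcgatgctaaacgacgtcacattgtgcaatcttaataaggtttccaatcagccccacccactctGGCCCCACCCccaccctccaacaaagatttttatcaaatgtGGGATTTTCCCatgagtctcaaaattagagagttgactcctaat
Cxcl10, chr5:92348890-92349139, minus strand: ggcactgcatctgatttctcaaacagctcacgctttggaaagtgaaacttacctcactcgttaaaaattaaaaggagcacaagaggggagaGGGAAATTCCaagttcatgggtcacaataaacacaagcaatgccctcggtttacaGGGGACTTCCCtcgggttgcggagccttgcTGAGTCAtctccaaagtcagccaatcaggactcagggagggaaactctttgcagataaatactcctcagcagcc
Each of the 4 windows held both the NF-kB-like and the AP-1-like letters, and the Sele window alone of the 4 also held the STAT-like letters, overlapping its NF-kB-like match. Of all 32851 windows of this length in the table, 45.8% held the NF-kB-like letters, 6.75% the AP-1-like letters, 7.02% the STAT-like letters and 2.38% both of the first 2. A match is a description of the sequence and does not show binding.

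Venular cells made up a much smaller share of the gated endothelial cells in the young control library than in the other 2 libraries. After the arterial, lymphatic and Myh11 limits, 578, 907 and 325 endothelial cells remained in the young control, knockout and old control libraries. The venular share of these was 9.34% (Clopper-Pearson interval 7.10 to 12.01) for the young control, 52.8% (49.5 to 56.1) for the knockout and 38.2% (32.8 to 43.7) for the old control. The counting intervals did not overlap, but they leave out the spread between animals. The share is set by the Selp and Sele limit itself, so the order knockout, old control, young control describes these 3 libraries only. It also held when at least 2 or at least 5 UMIs were asked for, but not when 5 of the 7 endothelial genes were required, a limit chosen after seeing the data (61.23% in the knockout library and 61.46% in the old control).

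In the young control the endothelial cells fell into those with no Selp or Sele UMI (514 of 578) and those with 5 or more (47), with 17 cells in between. In the knockout 247 of 907 cells had none, 345 had 5 or more and 315 lay in between, and in the old control the counts were 160, 92 and 73 of 325. Selp was detected without Sele in 9, 79 and 12 of the venular cells, Sele without Selp in 0, 11 and 3, and both in 45, 389 and 109. The median venular cell held 12.5, 7 and 7 UMIs of the 2 genes. Summed over the venular cells, Selp stood at 1754, 2235 and 1337 CPM and Sele at 727, 914 and 917 CPM.

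**Figure D1:**
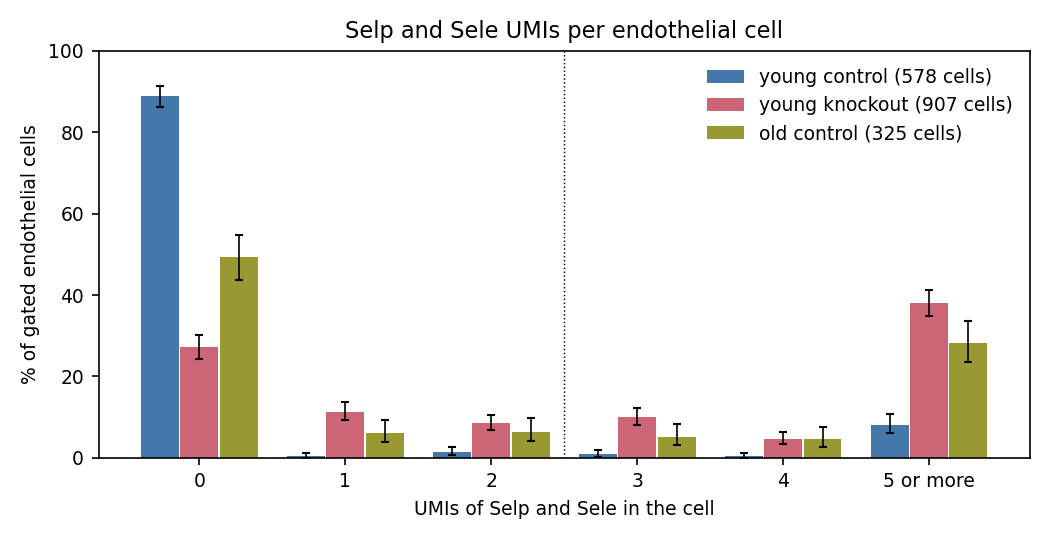
Share of gated endothelial cells (vertical axis, percent) by the UMIs of Selp and Sele in the cell (horizontal axis) in the 3 libraries; bars carry 95% Clopper-Pearson intervals and the dotted line marks the limit of 3 UMIs. The young control cells sit at 0 (514 cells) or at 5 or more (47 cells), whereas 315 knockout cells hold 1 to 4 UMIs.

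Selp and Sele UMIs were also found outside the endothelial gate, mostly in the knockout. At least 1 UMI was present in 1.25% of the 10350 young control, 37.5% of the 6764 knockout and 2.50% of the 11346 old control barcodes outside the gate, and 3 or more in 6, 915 and 47 of them. Among barcodes outside the gate with at least 3 UMIs of T cell receptor complex genes (called lymphocyte-gated below), a cell type that should lack the gene, Selp was detected in 0.757%, 23.3% and 0.711% (median depths of 3364, 3592 and 2704 UMIs). Barcodes holding more than 1 Myh11 UMI were 3.72%, 58.0% and 6.73% of the endothelial gate, and 729 knockout barcodes were left out for Myh11 although they had 3 or more Selp and Sele UMIs. The part of mixed barcodes in the knockout share was not tested. With at most 1 UMI over Myh11, Acta2, Tagln and Rgs5 together, a limit chosen after seeing the data, the venular shares were 6.25%, 30.25% and 17.65%, from 24, 36 and 21 venular cells.

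Cells just inside and just outside the limit of 3 UMIs differed little in Plvap, a diaphragm protein of fenestrae and caveolae. Its summed level was 868 CPM at 2 UMIs and 1197 CPM at 3 UMIs in the young control, 879 and 809 CPM in the knockout, and 803 and 845 CPM in the old control. The levels of Ackr1, the atypical chemokine receptor of venules, were 106 and 191 CPM, 105 and 204 CPM, and 286 and 379 CPM in the same order. These classes held 8 and 5, 78 and 91, and 21 and 17 cells, so the young control values rest on few cells.

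The venular label was checked against markers that the rule did not use, by setting the venular cells against the gated endothelial cells of the same library without any Selp or Sele UMI (514, 247 and 160 cells). A gene was counted as past the size rule when its mean over both sets was at least 20 CPM, the ratio was at least 2 or at most 0.5, and the nearer bound of the ratio's interval was past 1.5-fold. Of 23 venular identity genes, 15 of 19 at this level were higher in the young control venular cells, 11 of 20 in the knockout library and 14 of 20 in the old control, and none was lower. Over all genes, 3.08% of 6452 were higher and 2.82% lower in the young control, 1.56% of 6146 higher and 1.48% lower in the knockout, and 2.6% of 6413 higher and 2.29% lower in the old control. Since Selp and Sele separated the sets, these counts describe the cells and were not tested.

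Aqp1, a water channel of venous and capillary endothelium, stood at 3612, 2030.0 and 2685 CPM in the young control, knockout and old control venular cells, against 530, 580 and 523 CPM in the Selp- and Sele-free cells. Vwf, encoding von Willebrand factor, stood at 748, 426 and 537 CPM, against 296, 214 and 235 CPM. Ackr1 stood at 499, 433 and 571 CPM, against 11.4, 32.2 and 27.1 CPM. The Ackr1 gap was the widest of these in each library, 43.7-fold, 13.4-fold and 21.1-fold, and the marker was detected in 64.8%, 55.7% and 82.3% of venular cells. Nr2f2, encoding the venous transcription factor COUP-TFII, stood at 310, 263 and 346 CPM, 4.62-, 2.06- and 3.26-fold above the Selp- and Sele-free cells. The markers Plvap, Aqp1 and Vwf, which the rule did not use, were thus above the other endothelial cells in all 3 libraries, Plvap and Vwf by less than 2-fold in the knockout.

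Across all genes, 35 (0.655% of 5342) were higher in venular than in Selp- and Sele-free cells in all 3 libraries and 13 (0.243%) were lower. The higher genes included Nt5e, the ecto-nucleotidase CD73 (14.1-, 7.57- and 6.73-fold), Cysltr1, a cysteinyl leukotriene receptor (10.5-, 27.7- and 5.65-fold), Ptgs1, the constitutive cyclooxygenase, Procr, the endothelial protein C receptor (12.9-, 6.96- and 6.89-fold) and Hs3st1, a heparan sulfate sulfotransferase (20.7-, 7.14- and 8.07-fold). Hdc, the histamine-forming enzyme, stood at 225, 126 and 118 CPM in the venular cells against 23.9, 19.3 and 0 CPM. Il1r1, the interleukin-1 receptor, stood at 103, 163 and 124 CPM in the venular cells, 3.36-, 2.98- and 4.58-fold above the other cells. Some capillary and arterial genes were among the lower ones. Gpihbp1, which anchors lipoprotein lipase on capillaries, was at 0.150, 0.172 and 0.133 of its level in the Selp- and Sele-free cells. The Notch ligand Dll4 was at 0.133, 0.142 and 0.0506. Of the 14 capillary genes, 6 of 13 were lower and 1 higher in the young control. In the knockout 6 of 12 were lower and 2 higher, and in the old control 4 of 11 lower and 2 higher. Summed over the capillary list, the level was higher in venular cells, at 19495, 7275 and 14190 CPM against 15016, 4735 and 5123 CPM. Of the 12 arterial genes, 3 of 9 were lower and 2 higher in the young control. In the knockout 5 of 11 were lower and none higher, and in the old control 3 of 9 lower and 1 higher.

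**Figure D2:**
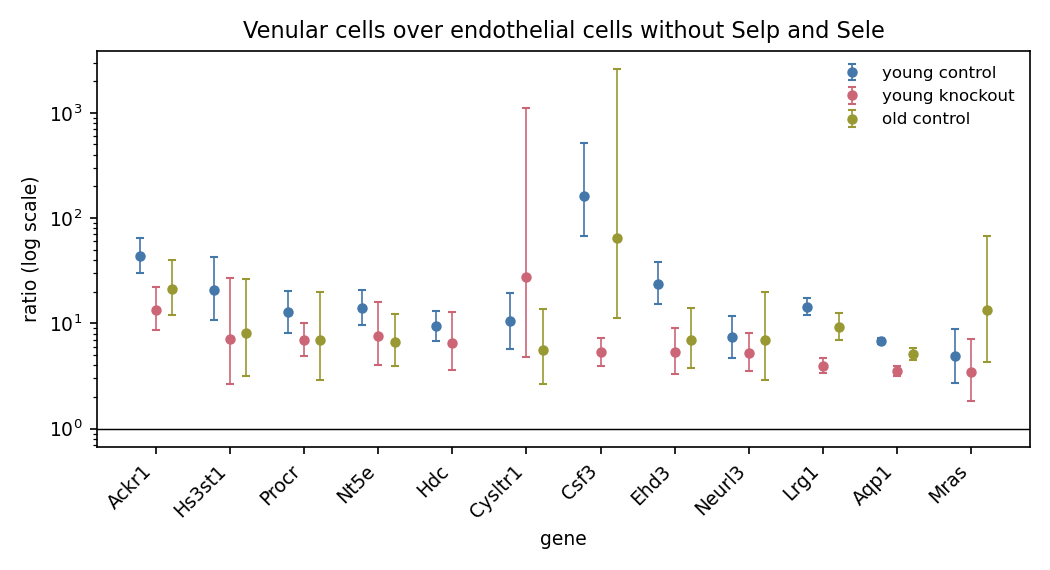
Ratio of the summed CPM in venular cells to that in Selp- and Sele-free endothelial cells of the same library (vertical log axis) for the 12 genes chosen by size among those higher in all 3 libraries (horizontal axis); points are libraries and bars 95% counting intervals. The points shown lie above the line at 1; Hdc has no old control point because the Selp- and Sele-free cells held none.

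The activated-endothelium program was read from 4 overlapping lists: 24 secreted factors, 16 surface proteins, 24 genes of the NF-kB response and its feedback, and 24 of the JAK-STAT3 response, 86 genes in all. For comparisons between libraries the size rule asked for a mean of at least 20 CPM over the 3 libraries, which 67 of the 86 met. In the knockout 8 of the 67 were higher and 6 lower than in the young control, where 3.33% of all 6224 genes were higher and 4.4% lower. The old control had 1 of the 67 higher and 8 lower, against 1.99% and 2.15% of all genes. The median log2 ratio was 0.07 over the program and -0.15 over all genes in the knockout, and -0.37 and -0.04 in the old control. Secreted factors, of which 15 were at this level, made up 5 of the 8 higher and 3 of the 6 lower genes of the knockout, and 6 of the 8 lower genes of the old control.

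Csf3, on chromosome 11 at 98701263 to 98703629, encodes G-CSF, the growth factor of neutrophils. Its 109, 578 and 68 UMIs gave 282, 403 and 136 CPM in the young control, knockout and old control venular cells. The knockout level was 1.43 times the young control level (1.16 to 1.77), short of the size rule, and the old control level was 0.483 times it (0.351 to 0.659), past the rule. The old control call was lost under 5 of 12 alternatives, with log2 ratios between -1.54 and -0.78 over all 12. The knockout ratio turned to a log2 value of -0.37 under the limit of 1 UMI over 4 mural genes.

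Csf3 transcripts were concentrated in the venular cells, in the young control in few of them and in the knockout mainly in those with 5 or more Selp and Sele UMIs. The Selp- and Sele-free cells held 1.73, 75.8 and 2.08 CPM of Csf3, so the venular level was 163-, 5.32- and 65.3-fold higher. Knockout cells with 1, 2 and 3 Selp and Sele UMIs held 73.6, 82.9 and 94.3 CPM, near the level of the Selp- and Sele-free cells. Those with 5 or more held 471 CPM. Csf3 was detected in 33.3%, 49.1% and 40.3% of venular cells and in 0.227%, 5.33% and 0.0889% of lymphocyte-gated barcodes. In the young control the 6 cells with most Csf3 held 69.7% of its UMIs, and the level was 233 CPM without the top cell. After thinning every cell to 1500 UMIs (54, 431 and 119 cells), it was detected in 24.1%, 34.6% and 20.2%.

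Il6, on chromosome 5, encodes interleukin-6, an inducer of the acute-phase response. Its levels were 564 CPM in the young control, 1504 CPM in the knockout library and 148 CPM in the old control. The knockout level was 2.67 times the young control level (2.32 to 3.08) and the old control level 0.263 times it (0.199 to 0.343), both past the size rule. The old control call held under all 12 alternatives, whereas the knockout call was lost after thinning, with a log2 ratio of 0.69 against 1.41. Il6 was detected in 75.9%, 87.3% and 40.3% of venular cells, and in 53.7%, 79.4% and 18.5% after thinning.

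Il6 was not limited to the venular cells. The Selp- and Sele-free cells held 140 CPM in the young control, 1217 CPM in the knockout library and 133 CPM in the old control, so the venular level was 4.02-fold higher in the young control and 1.24- and 1.11-fold higher in the other 2 libraries. Outside the endothelial gate the level was 42.1, 279 and 18.2 CPM, and 6.66%, 26.7% and 4.53% of lymphocyte-gated barcodes held a UMI. The knockout level was thus the highest of the 3 libraries in each of these sets of cells, and the part of free RNA in it was not tested. Within the knockout, Il6 stood at 1217 CPM in cells with 0 Selp and Sele UMIs, 1023 CPM at 3 and 1619 CPM at 5 or more.

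Csf3 and Il6 were often found in the same venular cells. Of the cells with Csf3, 88.9%, 97.0% and 48.0% also held Il6, against 69.4%, 77.9% and 35.1% of the cells without Csf3. The median depth of the cells with Csf3 was 7101, 2923 and 3437 UMIs and that of the others 5627.5, 2216.5 and 3476, so in the young control and knockout the Csf3 cells were also the deeper ones. All of Csf3, Il6 and Lrg1 were found in 13, 203 and 24 venular cells.

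Lrg1, encoding a secreted leucine-rich glycoprotein that marks venules and modulates TGF-beta signalling, differed little between libraries. It stood at 805, 1045 and 995 CPM, with ratios to the young control of 1.30 (1.15 to 1.47) in the knockout library and 1.24 (1.07 to 1.43) in the old control, neither past the size rule. It was 14.4-, 3.98- and 9.18-fold above the Selp- and Sele-free cells. With at most 1 UMI over 4 mural genes, the knockout log2 ratio was 1.15 and past the rule, against 0.37.

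Plvap was the most even of the 4 program genes by which the cells had been described. Its levels of 1309, 1266 and 1367 CPM gave ratios of 0.967 (0.876 to 1.07) in the knockout library and 1.04 (0.930 to 1.17) in the old control. The interval bounds of both ratios thus lay within 0.876 and 1.17. Detection was 96.3%, 85.4% and 95.2% of venular cells. The Selp- and Sele-free cells held 469, 714 and 413 CPM, so venular Plvap was 2.79-, 1.77- and 3.31-fold higher.

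**Figure D3:**
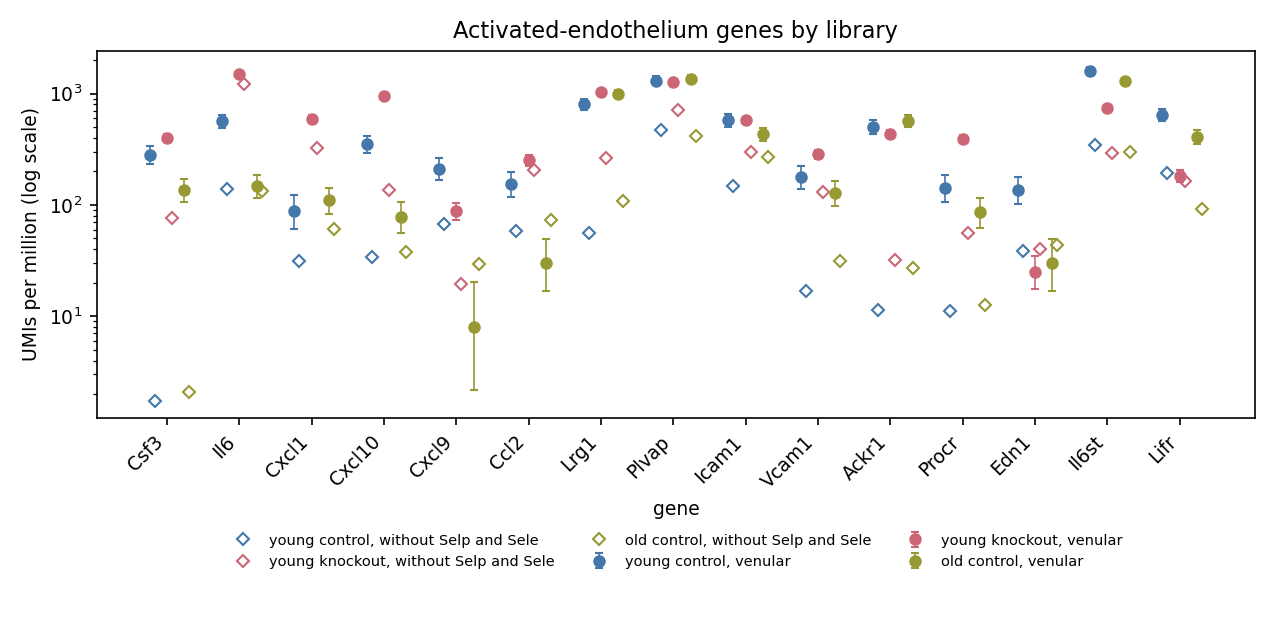
Summed level (CPM, vertical log axis) of 15 activated-endothelium genes (horizontal axis) in the venular cells of each library, as filled circles with 95% counting intervals, and in the Selp- and Sele-free endothelial cells, as open diamonds. Il6 is highest in the knockout (1504 CPM) and lowest in the old control (148 CPM), while Plvap lies between 1266 and 1367 CPM.

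The chemokines of the secreted list did not move as a block. Cxcl10, a ligand of the chemokine receptor CXCR3 on T cells, stood at 352, 945 and 78.1 CPM, a ratio of 2.69 (2.25 to 3.23) in the knockout library and 0.222 (0.151 to 0.319) in the old control. Cxcl9, another CXCR3 ligand, stood at 212, 87.9 and 8.01 CPM and was lower in both comparisons, with ratios of 0.414 (0.311 to 0.554) and 0.0377 (0.0100 to 0.100). The knockout call for Cxcl9 was lost under 3 of 12 alternatives, and 1 young control cell held 35 of its 82 UMIs: without the cell richest in Cxcl9 in each library the ratios were 0.685 and 0.0487. Both CXCR3 ligands were thus past the rule downward in the old control, while the lower Cxcl9 of the knockout rested on that cell. The knockout call for Cxcl10 was lost with at most 1 UMI over 4 mural genes (log2 0.43 against 1.42), and the top young control cell held 30.9% of its UMIs, the level without that cell being 249 CPM.

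Cxcl1 and Cxcl2, both neutrophil chemoattractants, were higher in the knockout. Cxcl1 stood at 88.0, 596 and 110 CPM, a knockout ratio of 6.78 (4.81 to 9.85) that held under all 12 alternatives. Cxcl2 had 8, 141 and 1 UMIs, a knockout ratio of 4.75 (2.35 to 11.2), a call lost under 3 of 12 alternatives, and its level in the knockout Selp- and Sele-free cells was higher still (422 against 98.3 CPM). Il1b, encoding interleukin-1 beta, had 3, 58 and 8 UMIs and a knockout ratio of 5.21 (1.70 to 26) that was lost under 6 of 12 alternatives. Il1b and Cxcl2 are abundant in myeloid cells. Of the 3 macrophage and monocyte genes at the level for the rule, Lyz2 was higher in the knockout venular cells (10.3, 80.2 and 10.0 CPM) and the other 2 were not above the young control, for a list median log2 ratio of -0.14. The part of myeloid RNA in these values was not tested. Cxcl1 was detected in 29.3% of the knockout lymphocyte-gated barcodes, against 72.4% of the knockout venular cells.

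Other secreted genes were lower. Edn1, the vasoconstrictor endothelin-1, stood at 137, 25.1 and 30.0 CPM, with ratios of 0.183 (0.116 to 0.285) and 0.219 (0.115 to 0.394). Csf1, the macrophage growth factor, stood at 129, 54.4 and 82.1 CPM, and its knockout ratio of 0.420 (0.291 to 0.612) turned to a log2 value of 0.14 after thinning. Without the cell richest in Csf1 in each library its knockout ratio was 0.629. Ccl2, the monocyte chemokine, stood at 155, 251 and 30.0 CPM, and its old control ratio of 0.193 (0.102 to 0.345) rested on a single young control cell: without the deepest cell of each library the log2 ratio was 0.0018.

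Among the 16 surface proteins, 14 were at the level for the size rule and only Procr passed it. Procr stood at 142, 393 and 86.1 CPM, a knockout ratio of 2.76 (2.09 to 3.71) that was lost after thinning (log2 1.14). Icam1, the firm-adhesion ligand, stood at 577, 575 and 434 CPM, with ratios of 0.997 (0.859 to 1.16) and 0.753 (0.622 to 0.912). Vcam1, the ligand of integrin VLA-4, stood at 179, 285 and 128 CPM, with ratios of 1.59 (1.23 to 2.09) and 0.718 (0.503 to 1.02). Icam1 and Vcam1 were thus within 2-fold of the young control in both comparisons. The median log2 ratio of the surface list was -0.03 in the knockout library and -0.44 in the old control.

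The NF-kB list was close to even. Nfkbia, the inhibitor that NF-kB itself induces, stood at 3019, 2662 and 3409 CPM. Of 20 genes at the level for the rule, Tnfaip2 was higher in the knockout (20.7, 66.9 and 66.1 CPM, ratio 3.23, 1.58 to 7.71) and Tnip1, a partner of the inhibitor A20, lower (56.9, 18.8 and 22.02 CPM, ratio 0.331, 0.181 to 0.609). Birc3, an inhibitor of apoptosis, was lower in the old control (98.3, 58.6 and 36.0 CPM, ratio 0.367, 0.197 to 0.658). Without the cell richest in Tnip1 in each library its ratio was 0.511. These 3 calls were lost under 6, 8 and 9 of the 12 alternatives, in that order.

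Il6st and Lifr were the 2 of 15 inflammatory receptor genes past the rule in the knockout, both lower, against 4.4% of all 6224 genes lower. Il6st, the shared signalling subunit gp130, stood at 1591, 751 and 1287 CPM, a knockout ratio of 0.472 (0.427 to 0.522). Lifr, the receptor of leukaemia inhibitory factor that pairs with gp130, stood at 647, 183 and 410.4 CPM, a knockout ratio of 0.282 (0.237 to 0.337). The Lifr call held under all 12 alternatives and the Il6st call under 8, being lost with both scaling factors. Socs3, a feedback inhibitor of these receptors, stood at 626, 655 and 655 CPM, and Stat3 at 396, 303 and 290.3 CPM. Mt1, a metallothionein, was higher in the knockout (1431, 3256 and 897 CPM, ratio 2.28, 2.08 to 2.49), and 3.78 times the young control without the cell richest in Mt1 in each library. The kinase Pim1 was higher in the old control (155, 238 and 336 CPM, ratio 2.17, 1.60 to 2.96) and Jak2 lower (163, 126 and 58.1 CPM, ratio 0.356, 0.221 to 0.561). Of 21 genes of this list at the level for the rule, 1 was higher and 2 lower in the knockout library and 1 higher and 1 lower in the old control.

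**Figure D4:**
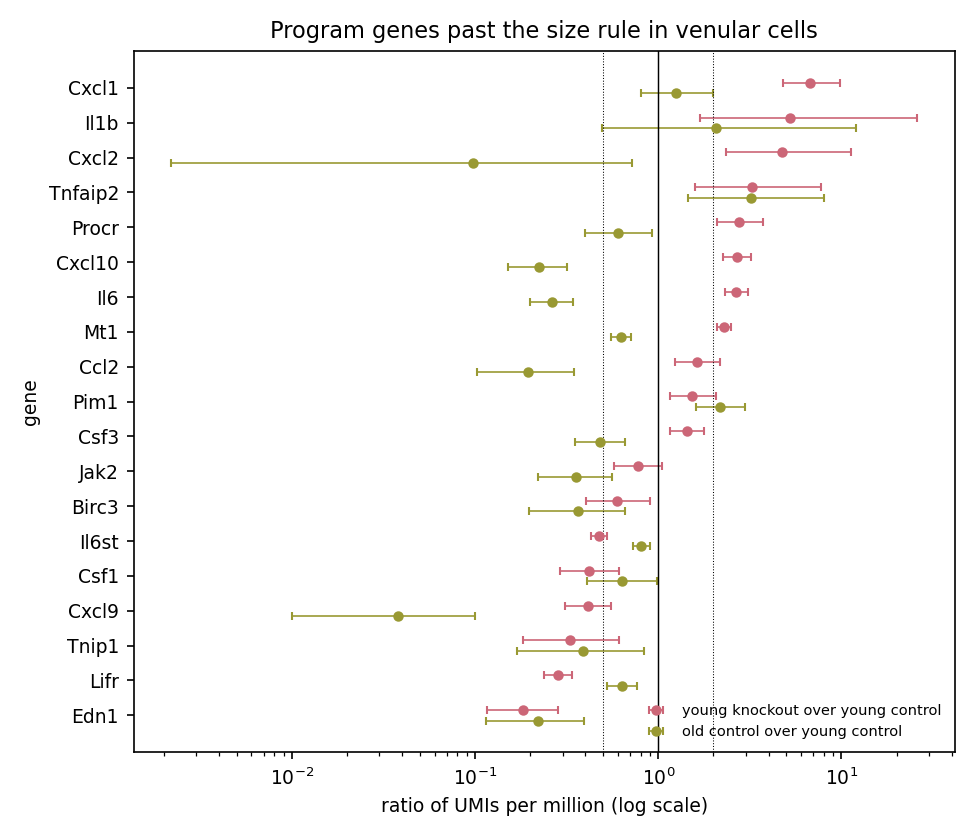
Ratio of the summed CPM of venular cells to the young control (horizontal log axis) for the program genes past the size rule in at least 1 comparison (vertical axis, by knockout ratio); bars are 95% counting intervals and dotted lines mark ratios of 0.5 and 2. Cxcl1 (6.78) is the highest knockout ratio, and Cxcl9 (0.0377) the lowest old control ratio.

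Interferon-induced genes split in the knockout. Isg15, a ubiquitin-like protein induced by interferon, stood at 20.7, 741 and 36.0 CPM, a knockout ratio of 35.8 (18.1 to 83.2). Ifit1, which binds foreign RNA ends, stood at 59.5, 974.9 and 22.02 CPM, a ratio of 16.4 (10.9 to 25.9). Ifit2, Ifit3 and Rsad2 were also higher, with ratios of 9.43 (3.14 to 46.5), 8.58 (3.87 to 23.7) and 3.16 (1.71 to 6.49). The interferon-induced GTPases Gbp3, Gbp4 and Iigp1 were lower, with ratios of 0.451, 0.329 and 0.412. Of 18 interferon genes at the level for the rule, 5 were higher and 4 lower in the knockout, and none higher and 6 lower in the old control (among them Irf7, Gbp3, Gbp4, Gbp7 and Rsad2). Over all 6224 genes, 3.33% were higher and 4.4% lower in the knockout, and 1.99% and 2.15% in the old control.

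The Isg15 and Ifit1 calls held under all 12 alternatives, and those of Ifit2 and Ifit3 under 11. Of the lower genes, the Iigp1 knockout call held under all 12, that of Gbp4 under 10 and that of Gbp3 under 6, and in the old control Irf7 was lost under 6 and Gbp7 under 5. The Rsad2 knockout call was lost under 4 of them, turning to a log2 value of -0.36 with at most 1 UMI over 4 mural genes and lost without the deepest cell of each library. In the young control Isg15 rested on 8 UMIs and in the old control on 18. Isg15 was detected in 56.8% of the thinned knockout cells, against 5.56% and 5.04% of the thinned young and old control cells. The knockout Selp- and Sele-free cells held 253 CPM of Isg15 and 142 CPM of Ifit1, and barcodes outside the endothelial gate 92.3 and 74.0 CPM. In the knockout library the venular level was therefore the highest of the 3 sets for both genes. Of lymphocyte-gated barcodes, 9.24%, 27.3% and 10.1% held Isg15.

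Some MHC class I genes were lower in the knockout. Of 11 genes of the MHC class I pathway, 5 were past the size rule: B2m (2463, 1229 and 1750 CPM, ratio 0.499, 0.461 to 0.540), H2-K1 (2704, 1206 and 1441 CPM, ratio 0.446, 0.413 to 0.482), H2-Q7, the peptide transporter Tap1 (246, 49.5 and 62.1 CPM, ratio 0.201, 0.146 to 0.277) and their regulator Nlrc5. Tap1 (ratio 0.252, 0.163 to 0.382) and Nlrc5 were also past it in the old control. The list's median log2 ratio was -0.95 in the knockout library and -0.49 in the old control. Its 11 genes summed to 8913, 4657 and 6002 CPM in the venular cells. In the Selp- and Sele-free cells they summed to 7633, 4571 and 5709 CPM, so the gap between libraries was not limited to venular cells. The B2m knockout call, close to the limit, was lost under 6 of 12 alternatives, both scaling factors among them, whereas those of H2-K1 and Tap1 held under all 12. H2-D1 stood at 1764, 1181 and 1441 CPM and was not past the rule. None of the 6 MHC class II genes at the level for the rule passed it in either comparison.

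The targeted genes were measured in the same cells. Wwtr1, encoding TAZ, had 71, 42 and 87 UMIs in the venular cells, or 184, 29.3 and 174 CPM. The knockout ratio was 0.159 (0.106 to 0.237) and the old control ratio 0.948 (0.685 to 1.32), and the knockout call held under all 12 alternatives. Yap1 had 27, 56 and 22 UMIs, or 69.9, 39.1 and 44.0 CPM, a knockout ratio of 0.559 (0.347 to 0.920) that was not past the size rule. The 3′ counts of these genes may lie outside the deleted exons, which were not given in the sources used here, so the Yap1 level does not measure how many cells had lost the protein.

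Of 15 YAP/TAZ target genes at the level for the rule, 2 were lower and none higher in the knockout, against 4.4% and 3.33% of all 6224 genes. Ctgf, the matricellular protein CCN2 and a common YAP readout, stood at 140, 28.6 and 16.0 CPM, with ratios of 0.205 (0.133 to 0.313) in the knockout library and 0.115 (0.0471 to 0.242) in the old control. A single young control cell held 32 of its 54 UMIs, and without the richest cell of each library the Ctgf knockout ratio was 0.459. At a mitochondrial limit of 10% the Ctgf knockout log2 ratio was -0.997 against -2.28 and the call was lost. Crim1 stood at 357, 154 and 222 CPM, a knockout ratio of 0.432 (0.347 to 0.538). Cyr61, the related CCN1 and also a YAP target, stood at 259, 400.3 and 400.4 CPM, above the young control in both but not past the rule. Igfbp3 (137, 251 and 290.3 CPM) and Ccdc80 (20.7, 27.2 and 86.1 CPM) were higher in the old control. The Igfbp3 call was lost under 4 of 12 alternatives and the Ccdc80 call under 3, with a Ccdc80 log2 ratio of 0.33 against 1.99 at 2 or more selectin UMIs. The list's median log2 ratio was -0.03 in the knockout library and 0.25 in the old control.

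Klf2 and Klf4, transcription factors that respond to blood flow, were lower in the knockout. Klf2 stood at 1118, 536 and 1071 CPM, a ratio of 0.480 (0.426 to 0.541), and Klf4 at 1863, 782 and 1361 CPM, a ratio of 0.420 (0.382 to 0.462). Klf4 levels in the Selp- and Sele-free cells were 1842, 733 and 1333 CPM, nearly those of the venular cells, so the gap between libraries was not limited to venular cells. The Klf2 call was lost with both scaling factors and with 5 of 7 endothelial genes (log2 -0.93 against -1.06), and the Klf4 call with no limit on Myh11 (-0.997 against -1.25) and with at most 1 UMI over 4 mural genes (-0.74). Together with Edn1 these were the 3 of 10 flow-responsive genes past the rule in the knockout, against 4.4% of all 6224 genes lower. Only Edn1 was past it in the old control, against 2.15% of all genes lower. None of the 10 was above the young control level in either comparison, with list medians of -0.83 and -0.58 on the log2 scale.

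Against 4.4% of all 6224 genes lower and 3.33% higher, 6 of 9 capillary genes at this level were lower in the knockout venular cells and none higher. Fabp4, a fatty acid carrier and the most abundant of them, stood at 15904, 5272 and 12064 CPM, a knockout ratio of 0.331 (0.320 to 0.343). Cd36, a fatty acid transporter, stood at 1102, 342 and 539 CPM, with ratios of 0.311 (0.272 to 0.355) in the knockout library and 0.489 (0.418 to 0.571) in the old control. The knockout calls of both held under all 12 alternatives. Cd300lg, Meox2, Sgk1 and Gpihbp1 were past the rule in the knockout too, with ratios of 0.232, 0.319, 0.373 and 0.375. The Gpihbp1 call was lost under 7 of 12 alternatives, both scaling factors among them, and the Meox2 call under 1. The 14 capillary genes summed to 19495 CPM in the young control and 7275 CPM in the knockout venular cells. In the Selp- and Sele-free cells they summed to 15016 and 4735 CPM, so the gap between these libraries was not limited to venular cells.

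Smaller groups showed few calls. Over all 6224 genes, 3.33% were higher and 4.4% lower in the knockout, and 1.99% and 2.15% in the old control. The BMP target Id1 was lower in both comparisons (246, 104 and 88.1 CPM), and of 16 genes of angiopoietin, VEGF and Notch signalling 2 were lower in the knockout (with Bmp4) and 3 in the old control (with the VEGF co-receptor Nrp1 and the apelin receptor Aplnr). The basement membrane chains Col4a1 (246, 248 and 90.1 CPM) and Col4a2 (119, 128 and 44.0 CPM) were lower in the old control. The caveolar protein Cavin3 was higher in both comparisons (142, 351 and 340.3 CPM). With at most 1 UMI over 4 mural genes the old control log2 ratios of Aplnr and Cavin3 turned to 0.09 and -0.36. The stress chaperones Hspa1a (85.4, 324 and 138 CPM) and Hspa1b (197, 475 and 204 CPM) were higher in the knockout. Both calls were lost with at most 1 UMI over 4 mural genes, at log2 ratios of 0.27 against 1.90 for Hspa1a and 0.68 against 1.26 for Hspa1b. Of 15 genes of haemostasis and Weibel-Palade bodies, Procr and the granule membrane protein Cd63 (132, 336 and 256 CPM) were higher and Edn1 lower in the knockout, and Edn1 alone was past the rule in the old control. Of 16 genes of leukocyte adhesion and passage, the junction protein F11r (241, 137 and 108 CPM) and the sialomucin Emcn (373, 203 and 182 CPM) were lower in the old control and none was past the rule in the knockout. The arterial ligand Efnb2 was lower in the old control (129, 64.9 and 48.0 CPM), a call that turned to a log2 ratio of 0.53 without the deepest cell of each library. None of 13 genes of protein folding in the endoplasmic reticulum was past the rule, with list medians of 0.44 and -0.21 on the log2 scale.

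None of 20 immediate-early genes, which respond to tissue dissociation among other stimuli, was past the rule, with list medians of -0.12 and -0.19 on the log2 scale.

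Beyond the lists, the genes chosen by size in the knockout were mixed. Thbs4, a thrombospondin, and Coch stood at 0, 133 and 0 CPM and at 0, 113 and 48.0 CPM, at least 17.2- and 14.6-fold higher than a floor of 3 young control UMIs. A single knockout cell held 77 of the 191 Thbs4 UMIs, the level without it being 79.9 CPM. At 2 or more selectin UMIs the knockout log2 ratio of Coch was 1.32, and both calls were lost with at most 1 UMI over 4 mural genes. Tpm2, Acta2 and Myl9, contractile genes of smooth muscle, stood at 36.2, 616 and 92.1 CPM, 67.3, 898 and 224 CPM, and 25.9, 394 and 132 CPM. Outside the endothelial gate of the knockout library these 3 were higher still, at 1689, 2271 and 838 CPM. Ubd, the ubiquitin-like FAT10, stood at 98.3, 0.697 and 16.0 CPM, 1 UMI in the knockout giving a ratio of 0.00709 (0.000175 to 0.0420). Dbp, a clock-controlled transcription factor, stood at 150.1, 6.97 and 216 CPM, a ratio of 0.0465 (0.0212 to 0.0917). Most of the other lower genes, among them Ccl27a, Alox12e, Fcgbp, Col17a1 and Cst6, are genes of keratinocytes and skin glands. Single young control cells held 39 of 43 Alox12e, 134 of 189 Ccl27a and 41 of 72 Fcgbp UMIs. Without the deepest cell of each library the knockout log2 ratio of Alox12e was -1.18 against -4.25, with its call lost, and that of Ccl27a -2.20 against -3.77. Cst6 stood at 771, 142 and 218 CPM and turned to a log2 ratio of 1.37 in the knockout without the deepest cell of each library.

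In the old control, Cytl1, a small secreted protein, was at 59.5, 105 and 605 CPM, 10.2 times the young control level (6.64 to 16.3), and at 6.23, 45.1 and 79.2 CPM in the Selp- and Sele-free cells. Crabp1 and Notum, the latter a Wnt inhibitor, were at 2.59, 141 and 192 CPM and at 0, 11.2 and 116 CPM. Outside the endothelial gate Crabp1 was higher still, at 186, 404 and 350 CPM, and Notum stood at 45.1, 47.4 and 101 CPM. The young control Selp- and Sele-free cells held 137 CPM of Crabp1 and 37.7 CPM of Notum. The Crabp1 ratio of 74.3 (13.0 to 2964) rested on 1 young control UMI, and Notum was at least 14.96-fold higher than the floor. Adamts9, a secreted protease, stood at 455, 406 and 78.1 CPM, an old control ratio of 0.171 (0.118 to 0.244). The peroxidase Pxdn, which crosslinks collagen IV, stood at 173, 48.8 and 28.03 CPM and was lower in both comparisons (0.282, 0.199 to 0.400, and 0.162, 0.0839 to 0.290). Ifi27l2a and Gbp2b, both interferon-induced, stood at 116, 58.6 and 2.00 CPM and at 69.9, 47.4 and 0 CPM, Gbp2b being at least 11.6-fold lower than in the young control. A single young control cell held 26 of the 45 Ifi27l2a UMIs. Without the cell richest in Ifi27l2a in each library, its levels were 57.6, 57.3 and 0 CPM.

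Markers of other cell types were present in the venular cells and differed between libraries. The 10 pericyte and smooth-muscle genes summed to 670, 2607 and 1830 CPM. Of the 8 at the level for the size rule, 5 were past it upward for the knockout library and 3 for the old control. Higher genes made up 3.33% of all 6224 in the first comparison and 1.99% in the second. Myh11 is counted among these, although the cell rule held it to at most 1 UMI per cell, so its value is a description only. Acta2 was detected in 35.2%, 83.3% and 51.6% of venular cells. The 9 keratinocyte genes summed to 5234, 2422 and 2985 CPM and the 8 fibroblast genes to 3881, 2556 and 3173 CPM, with all members detected. Single young control cells held 127 of 332 Krt14, 154 of 428 Krt5 and 125 of 207 Krt10 UMIs. Without the cell richest in the gene in each library, Krt14 stood at 622, 589 and 529 CPM. Krt5 then stood at 831, 447 and 409 CPM and Krt10 at 219, 127 and 383 CPM. Haemoglobin and other red cell genes summed to 59.5, 3439 and 140 CPM. The part of these cell types in the differences above was not tested.

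The 7 Schwann cell and melanocyte genes summed to 424, 1380.0 and 350.3 CPM, with 0, 0 and 1 at 0. Myeloid, lymphocyte and platelet genes were lower. The 10 macrophage genes summed to 132, 176 and 60.1 CPM with 1, 0 and 3 at 0, the 9 lymphocyte genes to 158, 169 and 92.1 CPM with 3, 0 and 0 at 0, and the 8 mast cell and neutrophil genes to 18.1, 73.9 and 0 CPM with 4, 2 and 8 at 0. The 7 platelet genes, of interest because platelets also carry Selp, summed to 38.8, 20.9 and 10.0 CPM with 5, 4 and 6 of them at 0. The 7 endothelial genes of the rule had a median of 23.5, 6 and 8.5 UMIs per venular cell, so the endothelial content per barcode was highest in the young control. At least 5 of the 7 were detected in 44, 139 and 59 of the venular cells.

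**Figure D5:**
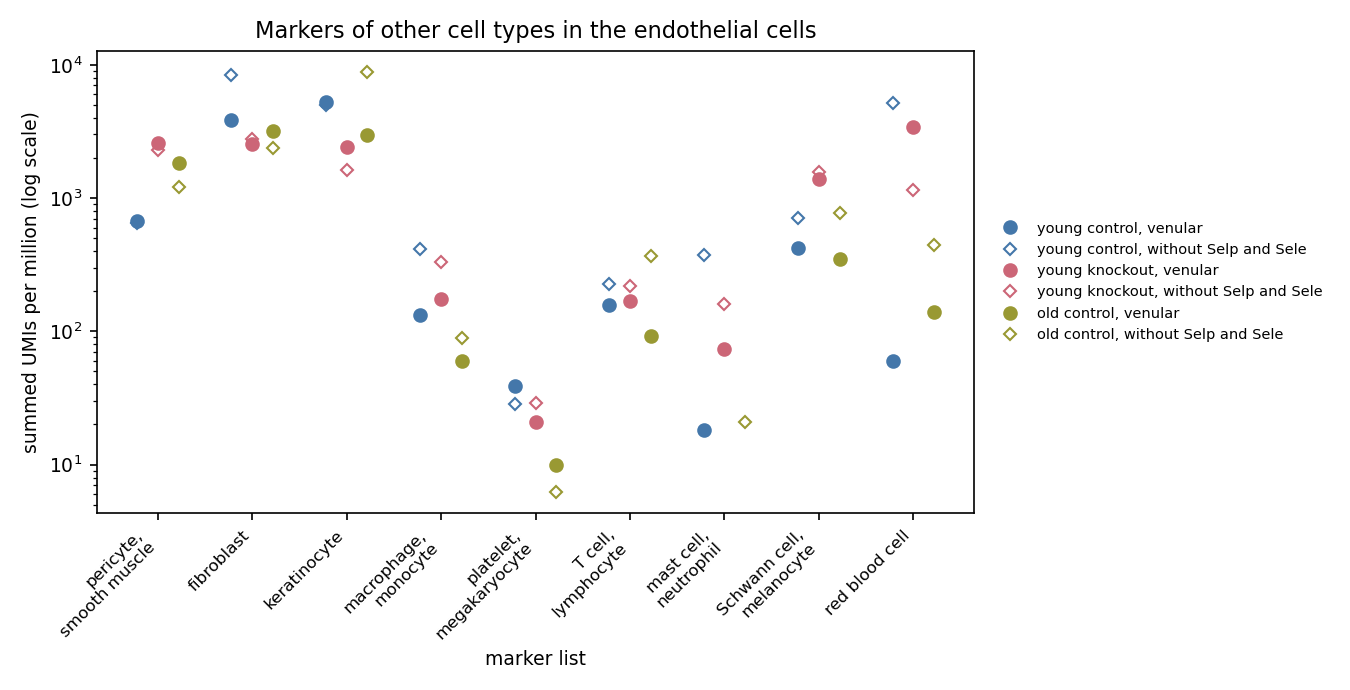
Summed CPM (vertical log axis) of 9 marker lists of other cell types (horizontal axis) in the venular cells (filled circles) and the Selp- and Sele-free endothelial cells (open diamonds) of each library; a sum of 0 is not drawn. Pericyte and smooth-muscle genes are highest in the knockout venular cells (2607 CPM), and red cell genes stand at 59.5 CPM in the young control and 3439 CPM in the knockout venular cells.

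Scaling changed the balance of the knockout comparison. With TMM factors the log2 ratios of all genes rose by 0.16 and 281 genes were higher and 182 lower, 60.7% of calls higher against 43.0% of the 207 and 274 calls without them. With median-of-ratios factors the shift was 0.13 and 58.3% of calls were higher. The program's knockout counts of 8 higher and 6 lower became 9 and 3 with either factor. The old control comparison, with 124 genes higher and 134 lower, shifted by 0.02.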

How the data were processed

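Per the submitters' processing notes, dorsal skin libraries were processed with Cell Ranger 3.1.0 and Seurat 3.1.5 on mm10. The authors deposited UMI counts per gene and barcode for 3 libraries, before any filter on cells stated in the sources used here. The filters and the venular rule of the opening paragraph were applied with Python 3.11.15 (numpy 2.4.6, scipy 1.17.1, pandas 2.3.3), and counts were summed over cells per library and divided by the summed UMIs of all genes. Intervals are exact Poisson, Clopper-Pearson or exact binomial split intervals. No test between groups was run, because each group is 1 library. The members, lists and settings were chosen with earlier results of these data known. Named genes are list members and, in each library comparison and direction, the 12 past the size rule whose nearer interval bound was farthest from 1, leaving out genes of the rule, mitochondrial, ribosomal, haemoglobin, immunoglobulin and unnamed genes and those over 10 times more abundant outside the gate; against Selp- and Sele-free cells they are the 12 with the highest lowest ratio. Doublets were not removed in the values given. As an alternative, the 8% of cells with the highest Scrublet scores (scanpy 1.11.5) were left out, since the automatic threshold marked at most 2.82% per library. TMM factors came from edgeR 4.0.16. Gene positions come from GENCODE M21. The values of 1 gene of the interferon list are not reported here.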

Additional observations from a re-analysis of the deposited data

Results flagged for a closer look

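Venular cells were set against Selp- and Sele-free endothelial cells of the same library. The 10 genes given here were past the size rule in opposite directions in different libraries, and the difference between libraries was not tested. They are not all such genes. Others were Dkk2 (0.127, 0.398 and 3.20 in the young control, knockout and old control) and Slc26a7 (0.0418, 0.451 and 3.05). Isg15 was at 0.329 of the Selp- and Sele-free level in the young control and 0.251 in the old control, but 2.93-fold higher in the knockout. Ifit1 was 6.87-fold higher in the knockout library and at 0.192 in the old control. The haemoglobin genes were lower in young control venular cells and higher in knockout ones: Hba-a1 at 0.0105 and 2.16, Hba-a2 at 0.0153 and 2.11, Hbb-bs at 0.0111 and 3.65, and Hbb-bt at 0.0109 and 2.56. In the old control Hba-a1 was at 0.214 and Hbb-bs at 0.307. Of the keratinocyte genes, Krt1 was at 2.47 in the knockout library and 0.377 in the old control, Krt79 at 2.69 in the young control, 3.26 in the knockout library and 0.308 in the old control, and Krtdap at 0.328, 3.07 and 0.349. The young control value of Krt79 rested on 1 cell with 167 of its 181 UMIs, and without that cell it was 0.244. The collagen gene Col3a1 was at 0.299 in the young control and 2.12 in the old control.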

How the results depend on the processing

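No paired analysis was possible because each group has 1 library. Leaving out cells with 3 or more UMIs of other-cell genes gave no value, since it left 0, 7 and 0 cells. Settings with limits on Myh11 and mural genes, 5 of 7 endothelial genes or without the deepest cells were chosen after seeing the data. The young control had the fewest cells (54). With at most 1 mural UMI (24, 36 and 21 cells) 344 single-gene ratios left their counting interval without turning, after thinning 242, and 14 to 91 in each of the other 10 settings. The causes of the changes were not tested, except that thinning and a minimum of 100 CPM leave fewer UMIs or genes to count.

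The venular share was 6.25% in the young control with at most 1 mural UMI. In the knockout it was 61.41% at 2 or more selectin UMIs, 38.04% at 5 or more, 61.1% at a mitochondrial limit of 10%, 30.25% with at most 1 mural UMI and 61.23% with 5 of 7 endothelial genes. In the old control it was 44.62%, 28.31%, 17.65% and 61.46% at 2 or more, 5 or more, at most 1 mural UMI and 5 of 7 genes.

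In the knockout, 101 genes were higher and 160 lower after thinning, 73 and 107 at 100 CPM, and 108 and 102 with at most 1 mural UMI; with TMM factors 182 were lower. Of program genes, 5 were higher after thinning, at 100 CPM, with at most 1 mural UMI and with 5 of 7 genes, and 3 lower in the first, second and last of these and with both scaling factors, against 2 with at most 1 mural UMI. In the old control, 37 genes were higher and 88 lower after thinning, 34 and 63 at 100 CPM, and 62 lower with at most 1 mural UMI. The 1 higher program gene became 0 at 5 or more selectin UMIs, with no limit on Myh11 and with 5 of 7 genes, and 2 with free RNA subtracted, at most 1 mural UMI and without the deepest cells. Program genes lower in the old control were 5 after thinning and 5 with at most 1 mural UMI. Genes higher than in Selp- and Sele-free cells in all 3 libraries were 15 after thinning, 12 at 100 CPM and 8 with at most 1 mural UMI. Genes lower were 2, 3 and 1 there, 8 with no limit on Myh11 and 35 with 5 of 7 genes.

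Called ratios of single genes turned in 36 cases, given here as log2 values. With at most 1 mural UMI, the old control ratios of Alox12e turned to 1.23, Aplnr and Ccl2 to 0.088, Cavin3 and Myh11 to -0.36, Ccl27a to 0.92, Cst6 to 1.88, Defb6 to 0.53, Dpt to 0.98, Efnb2 to 0.33, Krt5 to 0.051, Krt79 to 1.04, Psapl1 to 0.0035 and Stmn2 to -0.54. The knockout ratios of Defb6, Dpt and Rsad2 turned to 1.30, 0.27 and -0.36. Without the highest Scrublet scores, Cd52 in the old control turned to 0.21, Col1a2 to 0.77 in the knockout library and 0.97 in the old control, and Dpt to 0.70 and 1.11. After thinning, Csf1 in the knockout turned to 0.14, and Cst6 and Psapl1 in the old control to 0.42 and 1.18. With 5 of 7 genes, Krt1 and Mt4 in the old control turned to 0.25 and 2.25. Without the deepest cells, the old control ratios of Alox12e, Ccl2, Cst6, Defb6, Efnb2 and Krt79 turned to 1.13, 0.0018, 1.99, 0.63, 0.53 and 1.24, and the knockout ratios of Cst6, Defb6 and Flrt3 to 1.37, 1.04 and 0.82.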
